A study of Mus musculus with 9 samples.

Results

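Transcripts of 9 transcription factor genes that govern the fate of conventional dendritic cells (cDC) were followed across 3 dendritic cell (DC) subsets of the mouse spleen. The genes were Batf3, Batf, Batf2, Id2, Nfil3, Bcl6, Zbtb46, Mycl and Etv6. They were chosen by name as regulators of cDC and of cDC1 fate, and each matched exactly 1 of the 39179 genes in the table of counts. RNA was sequenced from CD8-positive cDC1, CD8-negative cDC2 and plasmacytoid DC (pDC) of C57BL/6J mice aged 6 to 12 weeks, which had received no stimulus. Each of the 3 sorts per subset used the pooled spleens of 15 to 17 mice, so a library stands for a pool and not for a mouse. The same replicate number carries the same date code in the 3 subsets, and it is called a sort below. All groups shared one genotype and no treatment, and the subsets differed only in the gate by which they were sorted.

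The 3 subsets arise from bone marrow progenitors through a network of DNA-binding proteins. BATF3, a basic leucine zipper factor that pairs with JUN proteins and works with IRF8, is required for splenic cDC1, and the related BATF and BATF2 can stand in for it in some settings. ID2 has a helix-loop-helix domain but no DNA-binding region, so it holds E proteins such as E2-2 (encoded by Tcf4, the central pDC factor) away from DNA. NFIL3 acts early in cDC1 specification, BCL6 and ZBTB46 are BTB zinc-finger repressors, MYCL is a MYC family member used by cDC1, and ETV6 is a repressor of the ETS family.

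The RefSeq promoter windows (GRCm38.p6, 250 bases before the transcription start to 50 bases after it) were searched for short motifs. A window was found for 8 of the 9 genes. The stretches below hold no base of an annotated exon of a protein-coding transcript in GENCODE M21 and are written 5′ to 3′ on the strand of the gene. Capitals mark E-boxes (CANNTG), the motif bound by E proteins and by MYC with MAX. Batf3 (chr1:191098164-191098324, plus strand), Id2 (chr12:25096254-25096342, minus strand) and Bcl6 (chr16:23988853-23989102, minus strand) are shown as examples of genes lower in pDC than in both cDC subsets. Batf (chr12:85686470-85686668, plus strand) is shown because its level passed the test in no comparison. The Batf3 and Id2 stretches lie within the annotated span of their gene, that of Batf3 partly in the first exon of its non-coding transcripts and that of Id2 in an intron of a longer transcript. The window of Zbtb46, also low in pDC, is not shown because it lies inside the gene, far from its annotated 5′ end. Etv6, also lower in pDC than in both cDC subsets, is not shown either, and its window held 0 CANNTG, 0 CACGTG and 6 GGAA. Batf2 had no window.
Batf3: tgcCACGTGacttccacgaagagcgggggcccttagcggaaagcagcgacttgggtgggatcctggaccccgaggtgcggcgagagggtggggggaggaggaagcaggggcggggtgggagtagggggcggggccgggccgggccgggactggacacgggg
Id2: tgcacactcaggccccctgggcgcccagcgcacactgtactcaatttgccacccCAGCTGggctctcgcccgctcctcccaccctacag
Bcl6: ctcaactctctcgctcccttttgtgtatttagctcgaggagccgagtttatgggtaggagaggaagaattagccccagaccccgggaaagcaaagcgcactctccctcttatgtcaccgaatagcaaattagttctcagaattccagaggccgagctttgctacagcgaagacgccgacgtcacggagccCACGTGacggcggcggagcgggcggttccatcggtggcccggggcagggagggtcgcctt
Batf: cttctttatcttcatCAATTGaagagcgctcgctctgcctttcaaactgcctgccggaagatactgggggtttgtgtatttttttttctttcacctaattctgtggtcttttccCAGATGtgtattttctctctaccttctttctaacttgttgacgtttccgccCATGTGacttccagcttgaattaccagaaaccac

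Batf3 has the palindromic E-box CACGTG 247 bases before its start. Bcl6 has one inside the stretch shown, 60 bases before the transcription start of that window. A further window of Bcl6, for another start (chr16:23981234-23981533), held 0 CANNTG, 0 CACGTG and 8 GGAA. Over the full 300-base windows of 32851 mouse promoters, searched on both strands, 7.15% held CACGTG and 72.3% held CANNTG, of which CACGTG is a special case. Id2 has 1 CANNTG, 196 bases before its start, and 3 copies of CCAAT at 159, 120 and 76 bases, and 3.37% of all windows held 3 or more CCAAT. The search also covered TGANTCA, found in 7.81% of windows, and GGAA, found in 96.0%. The Zbtb46 window held 6 CANNTG, 1 TGANTCA and 0 CACGTG. A match is a description of letters and not a sign of binding, and the gene Batf, whose level did not move with the others, holds 3 E-boxes.

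Total counts on genes lay between 15806597 and 32453789 per library and were lowest for the third sort of every subset, so low counts were least certain there. Levels are given as CPM (counts scaled to a common library size) with TMM factors, which correct each total for the composition of the library, and the floor of 3 counts lay between 0.0908 and 0.203 CPM. Intervals and floors of this kind cover counting error only. The labels matched the transcripts of defining genes for cDC1 and pDC: the summed level of 10 pDC markers was 13223 to 14242 CPM in pDC and 166 to 293 in the cDC libraries, and that of 12 cDC1 markers was 9243 to 9883 CPM in cDC1 and 916 to 2340 elsewhere. The 10 markers listed for cDC2 summed to 2444 to 2709 CPM in cDC2 and 382 to 495 in cDC1, but to 2940 to 3145 in pDC. Of these 10, 6 were lower and 4 higher in pDC than in cDC2, and Clec4a4 was at 162 ± 21.9 CPM in cDC2 against 1.25 ± 0.695 in pDC (SD, n = 3 each). Lists of other blood and vessel cells were also higher in pDC, with 712 to 737 CPM for 6 endothelial genes against 91.2 to 137 in cDC, 296 to 328 against 10.6 to 42.0 for 8 T cell genes, and 1981 to 2869 against 101 to 327 for monocyte and macrophage genes. Some defining genes were low, with Emcn at 0 counts in all 9 libraries and Cd3e at no more than 0.94 CPM, and others were high in pDC. The endothelial genes Cdh5 and Kdr were at 324 and 175 CPM on average in pDC against at most 2.49 and 11.0 in cDC, and Il7r and Cd28 of the T cell list at 231 and 59.1 against at most 13.9 and 1.06. Ly6c2, which pDC are known to express, made up most of the monocyte sum. The part of these transcripts in the results was not tested. The third sort had higher summed levels of 10 immediate-early and heat-shock genes in every subset, at 6180 CPM against 2951 and 1957 in cDC1, 6003 against 3142 and 3433 in cDC2, and 3990 against 1565 and 1638 in pDC.

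All 9 genes passed the filter on low counts and entered edgeR's quasi-likelihood test, with p-values adjusted by the Benjamini-Hochberg method over 13819 genes, at an adjusted p of 0.05. Against cDC1, 8 of the 9 were lower in pDC and 0 were higher, while 24.4% of all genes tested were lower and 24.3% higher. DESeq2 called the same number of the 9 genes and limma-voom 7, and the same 8 were past an unadjusted p of 0.05 in edgeR. Against cDC2, 6 were lower in pDC and 1, Mycl, was higher, beside 23.3% and 22.5% of all genes. Between the cDC subsets, 2 were lower in cDC2 than in cDC1 and 0 were higher in edgeR, DESeq2 or limma-voom, beside 11.7% and 12.7% of all genes, and 2 were past an unadjusted p of 0.05 in edgeR. The 3 comparisons share libraries, since each subset enters 2 of them, and are not independent of each other. The genes were listed as cDC regulators, so the counts describe the list and are no independent evidence of its direction. Batf2, counted as lower in pDC in both comparisons with cDC, passed the filter only through its counts in cDC.

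**Figure D1:**
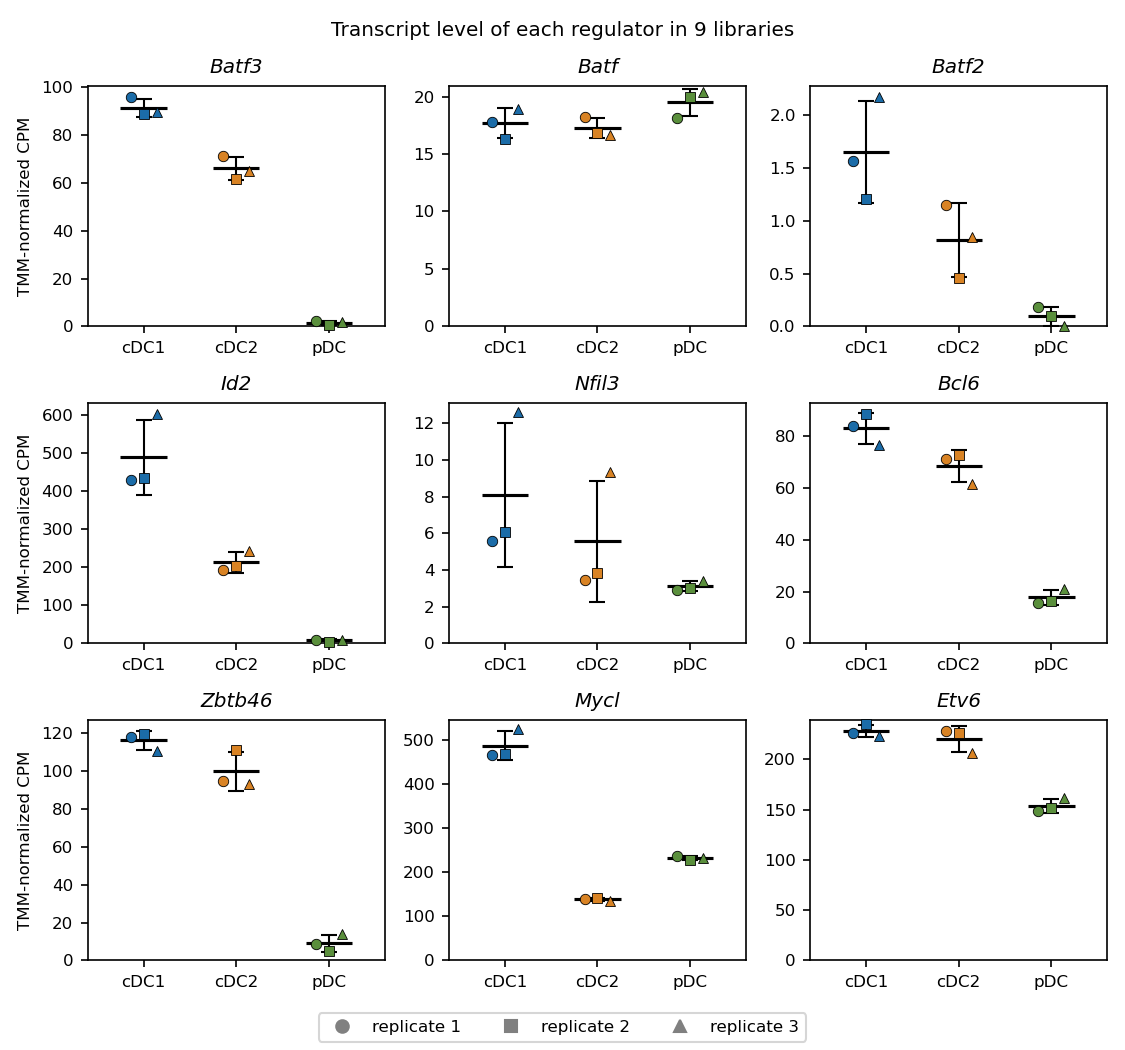
Level of each of the 9 genes in TMM-normalized CPM (y axis, starting at 0, scaled per gene) by subset (x axis), with 1 point per library, a horizontal line for the mean and bars of 1 SD (n = 3). Batf3, Id2, Bcl6 and Zbtb46 are low in every pDC library, Mycl is lowest in cDC2, Etv6 differs by at most 1.48-fold between subsets, and Batf lies between 16.3 and 20.4 CPM in all 9 libraries.

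Batf3 was present in both cDC subsets and close to absent from pDC. The gene (ENSMUSG00000026630, chr1:191097847-191108945, plus strand, GRCm38) has 3 exons in its principal transcript. Its level in sorts 1, 2 and 3 was 95.8, 88.9 and 89.7 CPM in cDC1, 71.4, 61.7 and 65.1 CPM in cDC2, and 2.24, 0.608 and 1.65 CPM in pDC. Every cDC1 library was above every cDC2 library, and every pDC library was far below both. The level in pDC was 58.6-fold lower than in cDC1 (log2 fold change -5.87 ± 0.33 SE, edgeR adjusted p = 5.78e-07) and 42.3-fold lower than in cDC2 (-5.40 ± 0.33, edgeR adjusted p = 8.52e-07). Of all genes tested, 2.80% differed more in size between pDC and cDC1. Fewer cells that carry a transcript and less of it per cell cannot be told apart in these bulk libraries.

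The step from cDC1 to cDC2 was small for Batf3. The means were 91.4 ± 3.80 and 66.1 ± 4.93 CPM (SD, n = 3 each), and cDC2 was lower in 3 of 3 sorts. The log2 difference of -0.47 ± 0.25 SE did not pass edgeR's test (adjusted p = 0.229). It passed in an edgeR fit of the 6 cDC libraries alone (adjusted p = 0.0123), in limma-voom (adjusted p = 0.0150) and in edgeR without pDC 2 (adjusted p = 0.0207), and the cause was not tested. The level of Batf3 in pDC rests on 74, 12 and 28 counts.

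Batf, which encodes the family member best known from T cells, was level across the subsets. The gene (ENSMUSG00000034266, chr12:85686669-85709087, plus strand) stood at 17.8, 16.3 and 18.9 CPM in cDC1, at 18.3, 16.8 and 16.7 in cDC2 and at 18.1, 19.97 and 20.4 in pDC. The ranges of the subsets overlap in all 3 comparisons. The log2 difference was 0.14 ± 0.13 SE between pDC and cDC1 (edgeR adjusted p = 0.409), 0.17 ± 0.13 between pDC and cDC2 (adjusted p = 0.313) and -0.03 ± 0.13 between cDC2 and cDC1 (adjusted p = 0.897), and the sign of the last of these turned under library size scaling.

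Batf2, an interferon-inducible member of the family, was scarce everywhere. The gene (ENSMUSG00000039699, chr19:6140983-6172476, plus strand) had 43, 29 and 32 counts in cDC1, 36, 13 and 16 in cDC2 and 6, 2 and 0 in pDC. In CPM these were 1.57, 1.21 and 2.17 in cDC1, 1.15, 0.455 and 0.850 in cDC2, and 0.182, 0.101 and 0 in pDC, where the last value allows up to 0.177 CPM. The ranges did not overlap, and pDC was lower than cDC1 (log2 fold change -3.90 ± 0.81 SE, edgeR adjusted p = 0.00280) and than cDC2 (-2.90 ± 0.80, edgeR adjusted p = 0.0138). Batf2 passed the filter only through its counts in cDC, the fitted fold at so few pDC counts depends on the prior count, and without cDC2 1 the comparison with cDC2 did not pass (adjusted p = 0.0592). Its exons overlap those of Arl2 on the other strand over 2.02% of their bases, and the strand setting of the counting is not given in the sources used here.

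The make-up of the BATF family therefore differed by subset when levels were divided by transcript length. Batf3 made up 85.8, 86.0 and 84.0% of the summed CPM per kilobase of the 3 genes in cDC1 and 81.7, 81.1 and 81.8% in cDC2. In pDC its share was 12.8, 3.49 and 8.80%, and Batf made up 86.6, 96.2 and 91.2%. The summed family level was 134 ± 5.25 CPM per kilobase in cDC1, 101 ± 7.22 in cDC2 and 22.3 ± 0.921 in pDC (SD, n = 3 each). Batf was thus the main BATF transcript of pDC at a level per kilobase of 20.4 ± 1.27, against 18.5 ± 1.34 in cDC1.

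**Figure D2:**
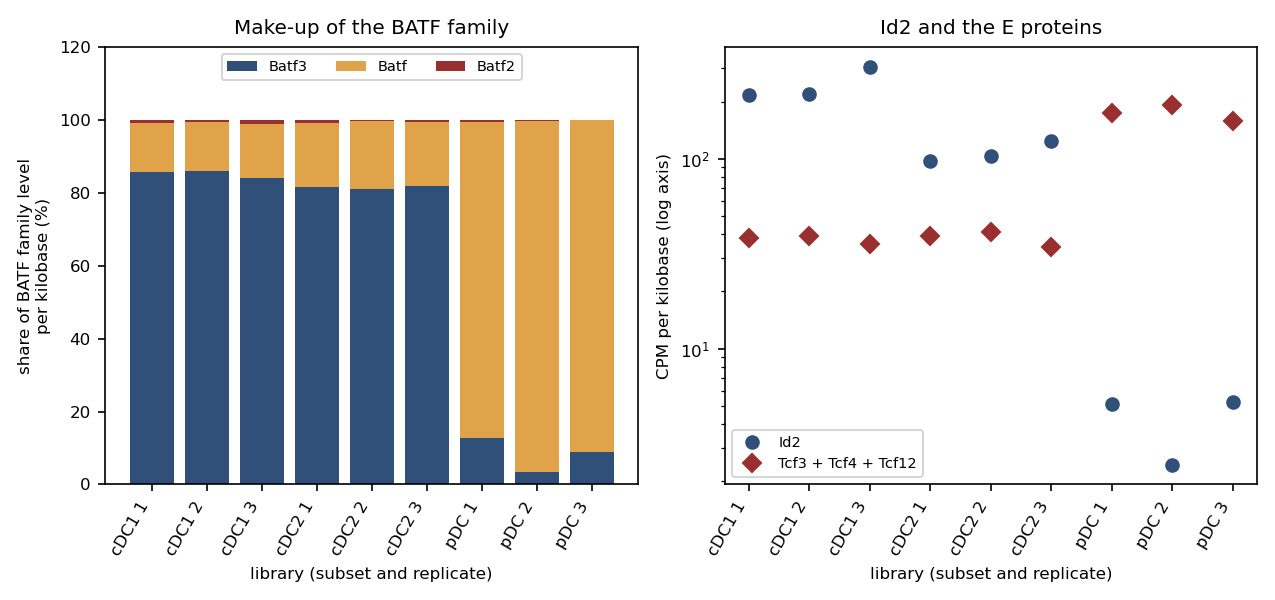
Left, share of Batf3, Batf and Batf2 in their summed level per kilobase of transcript (stacked bars in percent, 1 bar per library); right, level per kilobase of Id2 (circles) and of the E protein genes Tcf3, Tcf4 and Tcf12 summed (diamonds) on a log axis, 1 pair of points per library. Batf3 takes 81.1 to 86.0% of the family in the cDC libraries and 3.49 to 12.8% in pDC, and Id2 lies above the E proteins in all 6 cDC libraries and below them in the 3 pDC libraries.

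The genes that encode BATF partners were counted in the same way. Of 10 listed, 9 were tested, and 2 were higher and 1 lower in pDC than in cDC1, with 1 higher and 2 lower against cDC2 and 1 in each direction between the cDC subsets. With the sort as a block these became 3 and 3, 2 and 5, and 3 and 2, where 29.2 and 29.4%, 27.1 and 28.4%, and 18.5 and 17.1% of all genes were higher and lower. Without it the shares of all genes were 24.3 and 24.4%, 22.5 and 23.3%, and 12.7 and 11.7%. Irf8, whose product acts with BATF3 in cDC1, was at 2556 ± 221 CPM in cDC1, 269 ± 48.0 CPM in cDC2 and 4244 ± 274 CPM in pDC (SD, n = 3 each). It was thus abundant in pDC, where Batf3 was nearly missing, with a log2 difference of 3.98 between pDC and cDC2 (edgeR adjusted p = 8.85e-08), -3.25 between cDC2 and cDC1 (adjusted p = 1.06e-06) and 0.73 between pDC and cDC1 (adjusted p = 0.00127). Irf4 was at 15.0 ± 3.34, 69.5 ± 3.78 and 53.1 ± 3.49 CPM in cDC1, cDC2 and pDC, with log2 differences of 2.20 between cDC2 and cDC1 (edgeR adjusted p = 1.36e-05) and 1.82 between pDC and cDC1 (adjusted p = 1.05e-05).

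Among the AP-1 genes on that list, Atf3 was lower in pDC, with log2 fold changes of -4.07 and -4.04 against cDC1 and cDC2 in turn (edgeR adjusted p = 0.0112 and 0.0122). Its level was 93.4 ± 91.0 CPM in cDC1 and 91.4 ± 60.9 in cDC2, a wide spread with the third sort highest. In sorts 1, 2 and 3 Atf3 was at 48.5, 33.6 and 198 CPM in cDC1 and at 63.6, 49.4 and 161 in cDC2. Fosl2 was lower in pDC than in cDC2, with 0.718 ± 0.245 against 4.95 ± 0.490 CPM (log2 fold change -2.78, edgeR adjusted p = 0.00182). Fos, Fosb, Jun, Junb and Jund, which include the classical dimer partners of BATF proteins, did not pass edgeR's test without the block in any comparison, at means of 130 to 1111 CPM. Atf3, Fos, Fosb, Jun and Junb are also on the immediate-early list that was high in the third sort.

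Id2 was the most abundant of the 9 genes per kilobase in both cDC subsets, and it fell in steps from cDC1 to cDC2 to pDC. The gene (ENSMUSG00000020644, chr12:25093799-25097140, minus strand) stood at 429, 433 and 601 CPM in cDC1, at 192, 203 and 243 in cDC2 and at 10.02, 4.82 and 10.3 in pDC. No library of one subset reached the range of another. The pDC level was 58.1-fold below cDC1 (log2 fold change -5.86 ± 0.31 SE, edgeR adjusted p = 3.84e-07) and 25.4-fold below cDC2 (-4.66 ± 0.29, edgeR adjusted p = 1.14e-06). Between the cDC subsets the level was 2.29-fold higher in cDC1 (log2 fold change of cDC2 against cDC1 -1.20 ± 0.25, edgeR adjusted p = 0.00635), and this difference had the same sign in 3 of 3 sorts.

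The third sort was the highest for Id2 in each subset, by 0.48 in cDC1, 0.30 in cDC2 and 0.47 in pDC on the log2 scale over the mean of the other two sorts. Id2 is also a gene of natural killer (NK) cells. The summed level of 8 NK markers was 131 to 166 CPM in cDC1, 90.4 to 191 in cDC2 and 26.8 to 64.0 in pDC, and Ncr1, a defining NK receptor, was at 1.13 to 1.49 CPM in cDC1, 2.33 to 10.4 in cDC2 and 0.963 to 1.89 in pDC. The part of NK transcripts in the Id2 level was not tested.

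Tcf4 and Tcf12, which encode E proteins that ID2 restrains, ran the other way. Of the 6 genes for E proteins and other Id proteins, 5 were tested, and 3 were higher and 0 lower in pDC in each comparison with a cDC subset, beside 24.3 and 24.4% of all genes against cDC1 and 22.5 and 23.3% against cDC2. In edgeR 4 of the 5 were past an unadjusted p of 0.05 against cDC1 and 3 against cDC2, and neither DESeq2 nor limma-voom called any lower. Tcf4 was at 928 ± 61.2 CPM in pDC, 36.3 ± 5.90 CPM in cDC1 and 47.5 ± 3.85 CPM in cDC2 (log2 fold changes of pDC 4.67 and 4.29, edgeR adjusted p = 3.35e-08 and 7.28e-08). Tcf12, which encodes HEB, was 226 ± 31.1 CPM in pDC against 54.4 ± 3.41 in cDC1 and 38.3 ± 3.21 in cDC2 (2.05 and 2.56, edgeR adjusted p = 1.11e-06 and 3.31e-07). In edgeR without the block Tcf12 was the only one of the list called between the cDC subsets, lower in cDC2 by 0.50 (edgeR adjusted p = 0.0154). With the sort as a block 2 further genes were called higher. DESeq2 called 1 higher and 1 lower, limma-voom 0 and 1, and edgeR under library size scaling 1 and 0. Of all genes, 12.7% were higher and 11.7% lower without the block, and 18.5 and 17.1% with it.

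Id3, a close relative of Id2, had the opposite pattern to Id2. It stood at 14.8 ± 6.95 CPM in pDC, 0.627 ± 0.460 CPM in cDC1 and 1.25 ± 0.193 CPM in cDC2 (log2 fold changes of pDC 4.65 and 3.56, edgeR adjusted p = 6.11e-05 and 0.000225). Tcf3, which encodes the E2A proteins, was at 73.3 to 91.7 CPM on average and passed in no comparison in edgeR without the block. Id1 was at most 0.695 CPM on average in any subset.

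Per kilobase, the Id2 level was 6.62 ± 1.66 times the summed level of Tcf3, Tcf4 and Tcf12 in cDC1, 2.88 ± 0.642 times in cDC2 and 0.0249 ± 0.0107 times in pDC (SD, n = 3 each). The ratio was 5.71, 5.61 and 8.53 in the cDC1 sorts, 2.50, 2.51 and 3.62 in the cDC2 sorts, and 0.0291, 0.0128 and 0.0327 in the pDC sorts. The ranges of the 3 subsets did not overlap. The E protein sum itself was 37.7 ± 1.78 CPM per kilobase in cDC1 and 38.1 ± 3.55 in cDC2, so the gap between the cDC subsets in this ratio followed Id2. The size of the ratio depends on the length used, here that of the principal transcript. In pDC, Tcf4 was at 108 CPM per kilobase by that length and at 33.9 by the union of all annotated exons. For Id2 the values in pDC were 4.25 and 3.43. The ratio by the union length was not computed. Transcript ratios are not ratios of protein.

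Nfil3 was low and was the least settled of the 9 genes. The gene (ENSMUSG00000056749, chr13:52967209-52981073, minus strand) stood at 5.57, 6.09 and 12.6 CPM in cDC1, at 3.47, 3.85 and 9.35 in cDC2 and at 2.91, 3.04 and 3.42 in pDC. All pDC libraries lay below all cDC libraries, and the cDC1 and cDC2 ranges overlapped. The pDC level was 2.58-fold below cDC1 (log2 fold change -1.37 ± 0.45 SE, edgeR adjusted p = 0.0300). The call against cDC1 was lost without cDC1 3 (-0.94, adjusted p = 0.112), without pDC 1 (adjusted p = 0.0825), without pDC 2 (adjusted p = 0.0683) and in limma-voom (adjusted p = 0.0518). The differences of -0.82 ± 0.45 between pDC and cDC2 (edgeR adjusted p = 0.166) and -0.54 ± 0.44 between cDC2 and cDC1 (adjusted p = 0.444) did not pass.

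The third sort carried much of the spread of Nfil3. It lay 1.11 above the mean of the other sorts in cDC1, 1.35 in cDC2 and 0.20 in pDC on the log2 scale. Without that sort Nfil3 was lower in cDC2 than in cDC1 (log2 fold change -0.70, edgeR adjusted p = 0.0167). The immediate-early genes were also highest in the third sort, and whether these belong together was not tested.

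Genes of the NFIL3 circuit, which hold the PAR bZIP factors that share its binding sites and clock genes, had their lowest mean in cDC1 for each of the 7 genes tested of 9 listed. The share of all genes with that order of means was not counted, and Per1 was at 23.3, 28.5 and 30.1 CPM in cDC1, cDC2 and pDC. Of the 7 genes, 5 were higher and 0 lower in cDC2 than in cDC1, with the same counts in DESeq2, limma-voom and the fit with the sort as a block, and 5 of the 7 past an unadjusted p of 0.05 in edgeR. Of all genes, 12.7% were higher and 11.7% lower. The median log2 difference of the tested genes was 1.46, and that of all genes tested was 0.03. Per2 was at 0.609 ± 0.293 CPM in cDC1 and 3.63 ± 0.704 in cDC2 (log2 fold change 2.53, edgeR adjusted p = 0.00321), and Bhlhe40, a repressor used by cDC and T cells, at 30.5 ± 23.2 and 148 ± 31.3 (2.29, edgeR adjusted p = 0.00578).

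Against cDC1, 4 of these 7 were higher and 0 lower in pDC in edgeR, DESeq2 and limma-voom, beside 24.3 and 24.4% of all genes. Tef rose from 11.3 ± 0.868 CPM in cDC1 to 41.0 ± 2.46 in pDC (log2 fold change 1.86, edgeR adjusted p = 4.87e-06), and Dbp from 4.61 ± 0.523 to 15.0 ± 1.94 (1.71, edgeR adjusted p = 2.92e-05). Against cDC2, 1 was higher and 2 were lower in pDC, beside 22.5 and 23.3% of all genes. DESeq2, limma-voom and the fit with the sort as a block each called 1 higher and 3 lower. With the block 27.1 and 28.4% of all genes were higher and lower. Bhlhe40 and Nr1d2 were lower, by 1.46 and 0.74 on the log2 scale (edgeR adjusted p = 0.0251 and 0.0164), and Tef was higher by 0.41 (edgeR adjusted p = 0.0402), a call that was not made under library size scaling. The hour of day at which each pool was taken is not given in the labels.

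Bcl6 was shared by the cDC subsets and lower in pDC, though far from absent there. The gene (ENSMUSG00000022508, chr16:23965052-23988852, minus strand) stood at 83.9, 88.7 and 76.5 CPM in cDC1, at 71.0, 72.9 and 61.4 in cDC2 and at 15.7, 16.6 and 20.97 in pDC. The lowest cDC1 library lay just above the highest cDC2 library, and pDC lay well below both. The pDC level was 4.69-fold below cDC1 (log2 fold change -2.23 ± 0.14 SE, edgeR adjusted p = 1.18e-06) and 3.86-fold below cDC2 (-1.95 ± 0.14, edgeR adjusted p = 2.79e-06). The difference of -0.28 ± 0.13 between cDC2 and cDC1 did not pass (edgeR adjusted p = 0.176), and it passed without the third sort (-0.29, adjusted p = 0.0187).

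For the corepressors that BCL6 recruits the calls depended on the block. Of 8 listed genes 7 were tested, and in edgeR without the block 0 passed between pDC and cDC1, where 1 was past an unadjusted p of 0.05, DESeq2 called 0 and limma-voom 1. With the sort as a block 2 were higher and 1 lower in that comparison, beside 29.2 and 29.4% of all genes. Without the block these shares were 24.3 and 24.4%. Mta3, a subunit of the NuRD complex, was highest in cDC2 at 128 ± 3.92 CPM, against 74.9 ± 4.06 in cDC1 (log2 fold change 0.78, edgeR adjusted p = 0.000206) and 76.2 ± 2.54 in pDC (pDC against cDC2 -0.75, edgeR adjusted p = 9.66e-05). Hdac3 was higher in pDC than in cDC2, by 0.47 (edgeR adjusted p = 0.0373). Without the block, pDC against cDC2 gave 1 higher and 1 lower, and cDC2 against cDC1 gave 1 higher, beside 22.5, 23.3 and 12.7% of all genes. With it, pDC against cDC2 gave 1 higher and 3 lower, and cDC2 against cDC1 gave 3 higher, beside 27.1, 28.4 and 18.5% of all genes.

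Zbtb46, whose protein marks cells committed to the cDC lineage, separated both cDC subsets from pDC and did not separate them from each other. The gene (ENSMUSG00000027583, chr2:181387762-181459426, minus strand) stood at 118, 120 and 111 CPM in cDC1, at 94.8, 111 and 93.3 in cDC2 and at 8.90, 4.82 and 13.7 in pDC. The cDC ranges overlapped and pDC lay apart. It was 12.8-fold lower in pDC than in cDC1 (log2 fold change -3.67 ± 0.31 SE, edgeR adjusted p = 7.00e-06) and 11.0-fold lower than in cDC2 (-3.45 ± 0.31, edgeR adjusted p = 1.14e-05). The log2 difference between cDC2 and cDC1 was -0.22 ± 0.27 (edgeR adjusted p = 0.640).

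Other BTB zinc-finger genes formed a list of 8. All were tested, and 4 were higher and 1 lower in pDC than in cDC1, 3 higher and 2 lower against cDC2, and 2 higher and 0 lower in cDC2 against cDC1. The shares of all genes were 24.3 and 24.4%, 22.5 and 23.3%, and 12.7 and 11.7%. With the sort as a block the last count became 3 and 1. DESeq2 and limma-voom also called 2 and 0 there, and 3 were past an unadjusted p of 0.05 in edgeR. Zbtb20 was at 31.2 ± 9.52 CPM in pDC, 7.04 ± 1.62 CPM in cDC1 and 6.95 ± 4.42 CPM in cDC2 (log2 fold changes of pDC 2.14 and 2.15, edgeR adjusted p = 0.00489 and 0.00497). Zbtb7b, the CD4 T lineage factor ThPOK, was at 25.6 ± 7.25 CPM in pDC, 47.4 ± 7.10 CPM in cDC1 and 73.9 ± 3.82 CPM in cDC2, and it passed in all 3 comparisons (log2 differences -0.89 and -1.53 for pDC and 0.64 for cDC2 against cDC1, edgeR adjusted p = 0.00536, 0.000216 and 0.0458).

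Further genes of this kind had smaller changes or lower levels. Zbtb32 was higher in pDC than in cDC1, at 1.49 ± 0.630 against 0.193 ± 0.171 CPM (edgeR adjusted p = 0.0210), and it passed the filter only with its pDC counts. Zbtb7a was higher in pDC than in cDC2, by 0.56 on the log2 scale (edgeR adjusted p = 0.0303). Zbtb16, which encodes PLZF of innate-like T and NK cells, was at 0.899 ± 0.320 CPM in cDC2, 0.0243 ± 0.0421 CPM in cDC1 and 0.0371 ± 0.0325 CPM in pDC, and cDC2 differed from both (edgeR adjusted p = 0.00758 and 0.00504). It lay under the floor of 3 counts in every cDC1 and pDC library. Zbtb16 passed the filter only through its counts in cDC2, so these tests are no independent evidence of its direction.

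Mycl was the exception to the order of the other genes, with its lowest level in cDC2 and an intermediate one in pDC. The gene (ENSMUSG00000028654, chr4:122995652-123002485, plus strand) stood at 467, 469 and 526 CPM in cDC1, at 139, 141 and 135 in cDC2 and at 237, 229 and 233 in pDC. The 3 ranges lay far apart, and the libraries within cDC2 and within pDC differed little. The level in cDC2 was 3.52-fold below cDC1 (log2 fold change -1.82 ± 0.09 SE, edgeR adjusted p = 1.70e-06), and 9.34% of all tested genes differed more in size between these subsets. The level in pDC was 2.09-fold below cDC1 (-1.06 ± 0.09, edgeR adjusted p = 5.35e-06) and 1.68-fold above cDC2 (0.75 ± 0.09, edgeR adjusted p = 6.39e-05), in 3 of 3 sorts each. Every alternative fit kept these directions, and all but the stricter call, a log2 difference of 1 or more, kept the calls. The difference between pDC and cDC2 did not reach that size.

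The rest of the MYC network had calls in both directions. Of 11 genes 10 were tested, and 3 were higher and 3 lower in pDC in each comparison with cDC, near the share of all genes (24.3 and 24.4% against cDC1, 22.5 and 23.3% against cDC2). Between cDC2 and cDC1, edgeR called 0, with 2 past an unadjusted p of 0.05, and DESeq2 and limma-voom called 1 each. Myc was at 1.98 ± 0.625 CPM in pDC, 12.6 ± 1.40 CPM in cDC1 and 19.4 ± 1.10 CPM in cDC2 (log2 fold changes of pDC -2.66 and -3.28, edgeR adjusted p = 1.32e-05 and 3.87e-06). Mxd3, which encodes a MAX-binding repressor found in dividing cells, was at 0.333 ± 0.349 CPM in pDC, 11.0 ± 1.68 CPM in cDC1 and 14.0 ± 0.702 CPM in cDC2 (-4.84 and -5.17, edgeR adjusted p = 7.01e-05 and 5.11e-05). Mxd3 passed the filter only through its counts in cDC.

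In the other direction, Mxd4, a relative of Mxd3 linked to resting cells, was at 159 ± 0.406 CPM in pDC against 66.2 ± 13.9 in cDC1 and 74.0 ± 15.2 in cDC2 (log2 fold changes 1.26 and 1.10, edgeR adjusted p = 0.000344 and 0.000874). Mlx was higher in pDC by 0.60 and 0.66 (edgeR adjusted p = 0.00177 and 0.00110). Max, the shared partner of the network, was at 74.8 ± 3.71 CPM in cDC1, 75.1 ± 5.90 CPM in cDC2 and 104 ± 8.33 CPM in pDC.

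Etv6 had the smallest difference among the genes that passed the test. The gene (ENSMUSG00000030199, chr6:134035700-134270158, plus strand) stood at 226, 235 and 224 CPM in cDC1, at 229, 226 and 206 in cDC2 and at 149, 151 and 162 in pDC. The cDC ranges overlapped and all pDC libraries were lower. The pDC level was 1.48-fold below cDC1 (log2 fold change -0.57 ± 0.09 SE, edgeR adjusted p = 0.000455) and 1.43-fold below cDC2 (-0.52 ± 0.09, edgeR adjusted p = 0.000889), and 53.8% of all tested genes differed more in size between pDC and cDC1. The difference between cDC2 and cDC1 was -0.05 ± 0.09 (edgeR adjusted p = 0.748), with a sign that turned under library size scaling. An antisense gene, Gm17089, overlaps 2.26% of the Etv6 exon bases and was at most 0.576 CPM on average in any subset.

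Other ETS family genes spanned a far wider range. Of 14 genes 13 were tested, and 7 were higher and 2 lower in pDC than in cDC1, 4 and 4 against cDC2, and 7 and 0 in cDC2 against cDC1. Of all genes, 24.3 and 24.4%, 22.5 and 23.3%, and 12.7 and 11.7% were higher and lower in these comparisons. In the last comparison DESeq2 and limma-voom called 8 and 0, and 9 were past an unadjusted p of 0.05 in edgeR. Ets1 rose from 5.63 ± 0.277 CPM in cDC1 and 21.3 ± 2.91 in cDC2 to 224 ± 33.9 in pDC (log2 fold changes of pDC 5.32 and 3.39, edgeR adjusted p = 3.35e-08 and 1.76e-07). Spib, a pDC factor, went from 38.8 ± 7.75 and 151 ± 22.5 to 1426 ± 133 CPM (5.20 and 3.24, edgeR adjusted p = 6.16e-08 and 5.00e-07).

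Falls in pDC on that list were led by Spi1 and Etv3. Spi1, which encodes PU.1, was at 117 ± 11.4 CPM in pDC, 442 ± 13.5 CPM in cDC1 and 577 ± 31.8 CPM in cDC2 (log2 fold changes of pDC -1.92 and -2.31, edgeR adjusted p = 3.44e-07 and 1.57e-07). Etv3, an ETS repressor, was at 31.1 ± 1.40 CPM in pDC, 109 ± 18.5 CPM in cDC1 and 178 ± 18.1 CPM in cDC2 (-1.81 and -2.52, edgeR adjusted p = 4.19e-06 and 6.08e-07). Etv5 and Elk3 were the ETS genes with the largest rise from cDC1 to cDC2, by 2.20 and 2.19 on the log2 scale (edgeR adjusted p = 8.22e-05 and 2.66e-05).

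**Figure D3:**
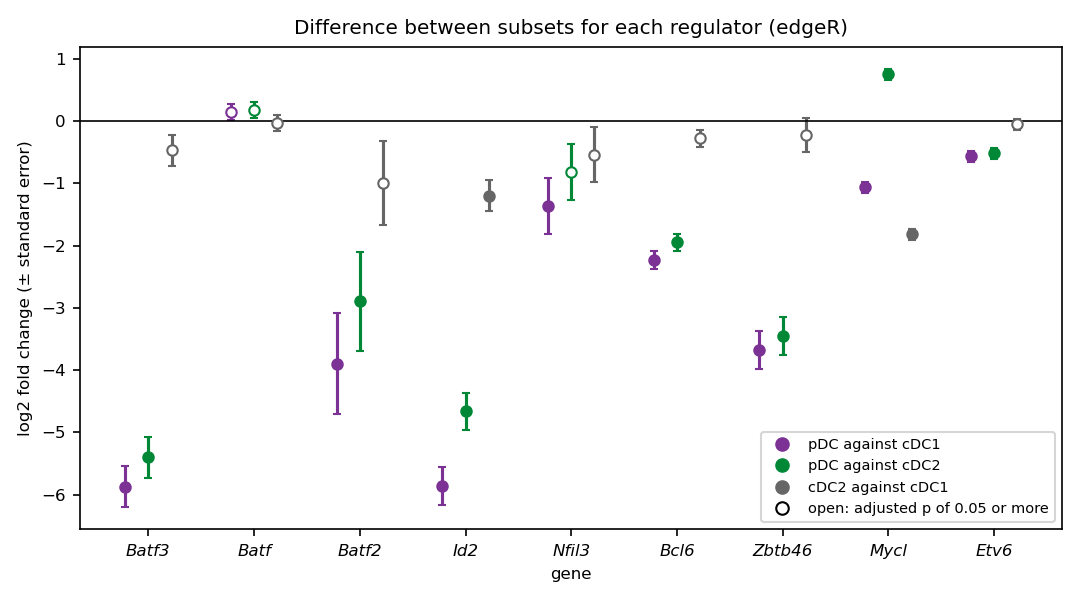
Log2 difference between subsets for each gene (points) with its edgeR standard error (bars), in 3 colours for the 3 comparisons; filled points have an adjusted p under 0.05 over 13819 genes. The pDC points reach -5.87 for Batf3 and -5.86 for Id2, Mycl is the gene with pDC between the cDC subsets, and only Id2 and Mycl are filled for cDC2 against cDC1.

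Set against each other per kilobase of transcript, the 9 genes had a different order in each subset. In cDC1 the order was Id2 at 248 ± 49.7 CPM per kilobase, Mycl at 139 ± 9.58, Batf3 at 114 ± 4.74, Etv6 at 41.1 ± 1.06, Bcl6 at 23.6 ± 1.74, Zbtb46 at 21.9 ± 0.943, Batf at 18.5 ± 1.34, Nfil3 at 3.99 ± 1.93 and Batf2 at 1.18 ± 0.348 (SD, n = 3 each). Of neighbours in that order, Bcl6 and Zbtb46 alone had overlapping libraries. In cDC2, Batf3 at 82.5 ± 6.15 came second after Id2 at 108 ± 13.7, and Mycl fell to 39.5 ± 0.856, level with Etv6 at 39.7 ± 2.25. Bcl6, Zbtb46 and Batf could not be separated from their neighbours there.

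In pDC the order was led by Mycl at 66.5 ± 1.24, Etv6 at 27.8 ± 1.25 and Batf at 20.4 ± 1.27 CPM per kilobase. Bcl6, Id2, Batf3, Zbtb46 and Nfil3 followed at 5.04, 4.25, 1.87, 1.72 and 1.54, each overlapping its neighbour. Batf2 was last at 0.0678 ± 0.0654. When the union of all annotated exons was used as the length, Id2 remained first in both cDC subsets and Mycl in pDC, and some genes in the middle of the order changed places.

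**Figure D4:**
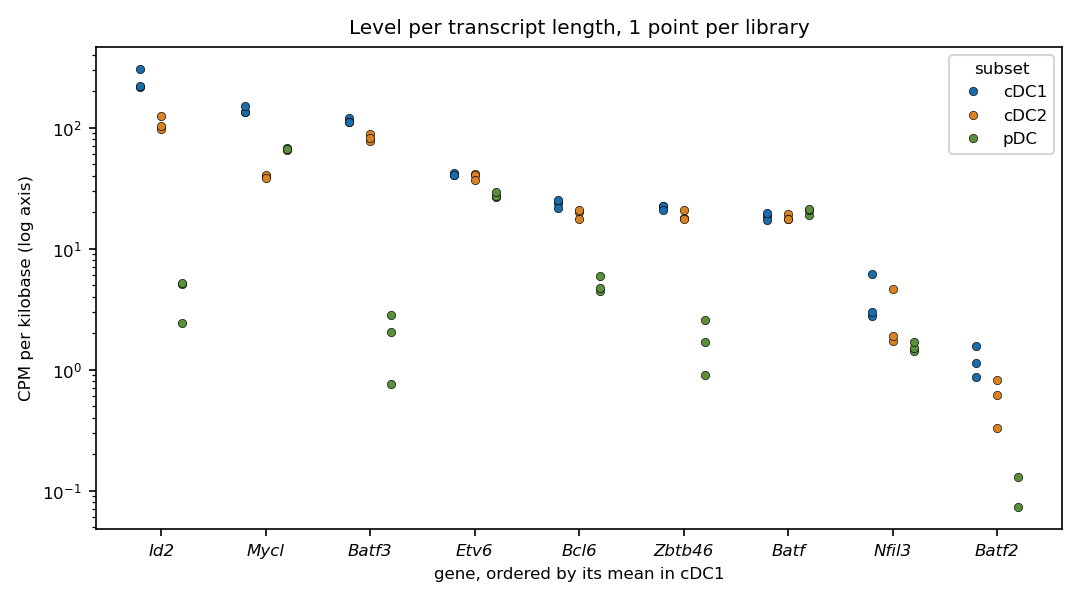
Level of each gene in CPM per kilobase of its principal transcript (y axis, log scale), 1 point per library, with genes ordered by their mean in cDC1 and the subset shown by colour; a library with 0 counts of Batf2 in pDC has no point on the log axis. Id2, Batf3, Bcl6 and Zbtb46 drop from 248, 114, 23.6 and 21.9 in cDC1 to 4.25, 1.87, 5.04 and 1.72 in pDC, and Batf stays near 20.

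The residual levels of cDC genes in pDC differed between sorts. As a percentage of the same sort's cDC1 library, Batf3 in pDC was 2.34, 0.684 and 1.84%, Id2 2.34, 1.11 and 1.71% and Zbtb46 7.52, 4.02 and 12.4%. Each was lowest in pDC 2. Xcr1, a chemokine receptor that defines cDC1, was at 0.958, 0.147 and 0.386% in the same libraries, also lowest in pDC 2. By CPM, with no division by cDC1, pDC 2 was the lowest pDC library for 4 of the 9 genes and 4 of 6 pan-cDC markers. It was also the lowest for 7 of 12 cDC1 markers, 7 of 10 cDC2 markers and 6 of 7 markers of mature DC. The share of all genes that were lowest in pDC 2 was not counted. The percentages could differ from the order by CPM. Ccr7 was at 5.28, 6.56 and 7.88% of the same sort's cDC1 library, though its CPM was lowest in pDC 2. Among the other genes of the 9, Bcl6 was at 18.7, 18.7 and 27.4% of cDC1, Etv6 at 65.8, 64.4 and 72.3% and Mycl at 50.8, 48.8 and 44.2%. Other cDC1 markers kept larger shares than Xcr1 in pDC, with Clec9a at 40.6, 39.2 and 41.1%, Cd8a at 27.5, 20.8 and 22.6% and Cadm1 at 11.8, 8.54 and 10.8%. The part of cDC transcripts carried into the pDC libraries in these residual levels was not tested.

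Regulators of DC fate outside the 9 genes formed a list of 15, all of them tested. Against cDC1, 11 were higher and 2 lower in pDC, against cDC2 5 were higher and 5 lower, and 11 were higher and 1 lower in cDC2 than in cDC1. The shares of all genes were 24.3 and 24.4%, 22.5 and 23.3%, and 12.7 and 11.7%. Runx2 was at 597 ± 43.0 CPM in pDC, 15.6 ± 0.755 CPM in cDC1 and 26.9 ± 3.27 CPM in cDC2 (log2 fold changes of pDC 5.25 and 4.47, edgeR adjusted p = 2.76e-08 and 4.46e-08). Zeb2 was at 8.05 ± 1.70 CPM in cDC1, 53.0 ± 6.18 CPM in cDC2 and 159 ± 27.6 CPM in pDC, with a rise of 2.71 from cDC1 to cDC2 (edgeR adjusted p = 1.09e-05). Relb, an NF-kB subunit used by cDC2, was at 518 ± 47.1 CPM in cDC2, 156 ± 29.8 CPM in cDC1 and 55.8 ± 2.46 CPM in pDC (log2 fold changes of pDC -1.48 and -3.21, edgeR adjusted p = 1.78e-05 and 2.10e-07). Runx2 and Zeb2 had their lowest mean in cDC1, where 8 of the 9 cDC regulators had their highest. Of the 9, only Id2 and Mycl passed edgeR's test between the cDC subsets, and the share of all genes with either order of means was not counted.

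**Figure D5:**
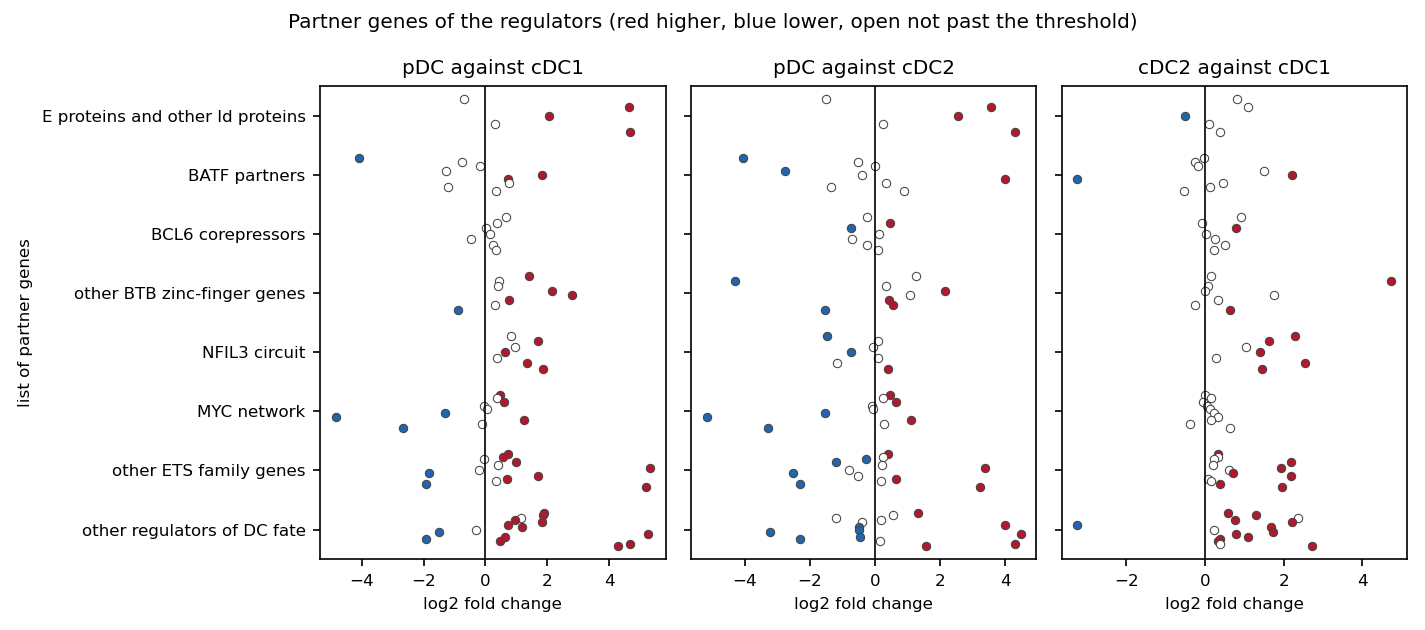
Log2 difference of each tested gene on the 8 partner lists (points, 1 row per list) in the 3 comparisons (panels); red is higher and blue lower at an edgeR adjusted p under 0.05, and open points did not pass. Against cDC1, 3 of 5 E and Id protein genes are red and the 7 BCL6 corepressors are open, and the NFIL3 circuit has 5 of 7 red points for cDC2 against cDC1.

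The genes whose pattern over the 9 libraries was most like each of the 9 were found by Pearson's r of log2(CPM + 1), over genes with a mean of at least 100 counts. For Batf3 these were H2-Aa and Pak1 (r = 0.998 each), for Id2 Rbbp7 and Adam8 (0.999 and 0.998), for Zbtb46 Hnrnpll and Diap3 (0.999 and 0.998) and for Bcl6 Cdk14 and Etv6 (0.996 and 0.995). The closest to Etv6 were Bcl6 and Spc24 (0.995 and 0.991), and to Mycl they were Pdia5 and Tifab (0.989 and 0.988). Batf2 had Bola2 and Gm10275 (0.983 and 0.976), Nfil3 had Mif and Trmt1 (0.985 each), and Batf had Adam15 and Mrpl23-ps1 (0.936 and 0.935). With 3 groups of 3 libraries such a value is common: 587 genes had an r over 0.95 with Batf3, 576 with Id2, 70 with Mycl and 0 with Batf. The libraries share their subset and depth, so r is a description of likeness in these samples.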

How the data were processed

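RNA from the 9 sorted pools was made into stranded libraries of polyadenylated RNA and sequenced as single reads of 75 bases. Raw read counts per gene, with no normalization, were deposited by the authors. The submitters' processing notes name STAR, SAMtools, featureCounts, MultiQC and build mm10. Annotation, versions and the strand setting of the counting are not given in the sources used here, and Degust, named in the methods, is given without a statistical method.

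Libraries were grouped by their labels. The analysis used edgeR 4.0.16 in R 4.3.3. A filter with filterByExpr (minimum count 10) left 13819 of 39179 genes, which were scaled by TMM factors, fitted over all 9 libraries with the subset as the only term, and tested by the quasi-likelihood test with Benjamini-Hochberg adjustment over all genes tested (threshold 0.05). No test was made over the 9 genes alone. The spread is that between pools. No pair of libraries of one subset agreed within sampling noise (chi-square per degree of freedom of at least 10.7), so each counted as 1 sample.

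The same replicate number carries the same date code in the labels, which is the source of the pairing. Deviations from subset means, over genes on log2(CPM + 1), correlated at 0.266 to 0.543 between same-numbered libraries of different subsets (9 pairs) and at -0.472 to 0.170 otherwise. Alternatives were the replicate block, DESeq2 1.42.0, limma-voom (limma 3.58.1), other scalings and filters, the 6 libraries compared, each library or the third sort left out, and a stricter call with a log2 difference of 1 or more as well. The code was tested on simulated data.

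Gene models and lengths come from GENCODE M21 on GRCm38, the build also called mm10, and promoters from RefSeq. No window of 75 bases in the transcripts of the 9 genes was shared with another gene, except for 1.06% of those of Etv6 with its antisense gene. Protein sequences were not used here. The 9 genes and all lists were chosen with earlier results of these data known. The genes named from each list are the largest 2 rises and 2 falls among those past the threshold in each comparison. A few others (Tcf12, Tcf3, Id1, Max, Nr1d2, the AP-1 genes that did not pass) were named after their values were seen. Python 3.11.15 and matplotlib 3.10.9 drew the figures.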

Additional observations from a re-analysis of the deposited data

How the results depend on the processing

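For each of the 9 genes and 3 comparisons the test was repeated under up to 19 alternatives, and the directions and calls of Batf3, Id2, Bcl6, Zbtb46, Mycl and Etv6 in pDC against either cDC subset, and of Id2 and Mycl in cDC2 against cDC1, were kept in all of them but the stricter call, which Etv6 against both cDC subsets and Mycl against cDC2 did not reach. With the replicate block 8, 7 and 2 of the 9 genes passed in the comparison of pDC with cDC1, of pDC with cDC2 and of the 2 cDC subsets, as without it, and the block changed no call of a member. Without the third sort 4 passed in cDC2 against cDC1, with Nfil3 and Bcl6 added. A log2 difference of 1 or more, asked for as well, left 7, 5 and 2. Leaving out single libraries gave 7 to 8, 6 to 7 and 2 to 3. The shares of all genes without the third sort, with the stricter call or with a library left out are not given here. The log2 difference of cDC2 against cDC1 turned positive for Batf (0.0772) and Etv6 (0.0596) under library size scaling and for Batf (0.00807) without the third sort, and none of these passed. Library size scaling shifted the median of all genes by 0.11 in that comparison and raised the share of higher calls from 52.2% to 63.1%. The calls that changed, for Nfil3, Batf3, Batf2 and Bcl6, are given with their values in the report, and the cause was not tested. With at least 10 counts required in every library Batf2 gave no value. Depth limits Batf2 and, in pDC, Batf3, whose counts there were 12 to 74.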
